A study of Mus musculus with 25 samples.

Results

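H3B-8800 was compared with vehicle in PyMT-M tumors, a mouse mammary tumor model begun from genetically engineered mice and labelled a responder to the drug. The comparison uses 8 of the 25 libraries of the study: 4 from tumors of mice given H3B-8800 each day and 4 from tumors of mice given vehicle. Every tumor had been placed in the mammary gland of a female C57BL/6 mouse aged 4 to 5 weeks, and mice were randomized after transplantation. Both groups therefore share the model, strain and sex, and the labels name no genotype or agent that separates them other than the drug. Replicates are separate tumors according to the design text. Polyadenylated RNA of whole tumors was sequenced, so each library mixes tumor cells with the host's stroma, vessels and leukocytes. The labels do not say how response was measured or how many separate transplant lines were used. The description turns on introns and on genes other than those of the interferon response, the cell cycle and macrophages.

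H3B-8800 is an orally given small molecule that binds SF3B, the part of the U2 snRNP that holds the branch point adenosine of an intron. In splicing, SF1 and U2AF first mark the branch point and the polypyrimidine tract beside the 3′ splice site. The U2 snRNP then replaces SF1, with SF3B1 and PHF5A clamping the helix between U2 snRNA and the branch site. Compounds of this class are known to leave some introns in the mRNA and to make others be spliced differently, and introns vary in how readily they are affected.

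The sequences of 10 short introns are shown first, because they show what an intron that gained reads with H3B-8800 and one that did not look like at the level of bases. The first 5 had the largest rise in percent of reads, and the other 5 were deeply read, held on average under 5% of reads in the intron with H3B-8800 and were not called. Capitals mark the first 6 bases (the 5′ splice site), the final AG (the 3′ splice site) and, where present, the CTNAC motif nearest the end between bases 50 and 16 before it. CTNAC is a simple form of the mammalian branch point consensus. The sequences were read 5′ to 3′ from GENCODE M21 transcripts that run through the intron (mm10), so an annotated transcript keeps each of these introns, and its reads cannot be told apart from retention.
Hmgxb4 intron 3: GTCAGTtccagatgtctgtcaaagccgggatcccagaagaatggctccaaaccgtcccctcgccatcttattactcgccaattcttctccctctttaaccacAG
Gadd45b intron 1: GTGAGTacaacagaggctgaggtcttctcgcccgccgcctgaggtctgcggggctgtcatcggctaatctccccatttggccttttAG
Syvn1 intron 6: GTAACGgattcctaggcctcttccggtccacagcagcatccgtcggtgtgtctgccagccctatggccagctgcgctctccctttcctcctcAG
Nip7 intron 2: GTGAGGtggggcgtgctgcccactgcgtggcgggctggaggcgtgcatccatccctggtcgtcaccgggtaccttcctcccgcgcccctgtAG
Zbtb17 intron 7: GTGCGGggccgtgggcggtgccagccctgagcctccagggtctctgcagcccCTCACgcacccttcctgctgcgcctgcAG
Tmem256 intron 3: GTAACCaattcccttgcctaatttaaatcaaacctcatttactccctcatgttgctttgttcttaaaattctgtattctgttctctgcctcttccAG
Sgk1 intron 4: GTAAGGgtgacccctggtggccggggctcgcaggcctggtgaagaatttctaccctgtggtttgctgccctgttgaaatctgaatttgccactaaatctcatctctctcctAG
Psme1 intron 9: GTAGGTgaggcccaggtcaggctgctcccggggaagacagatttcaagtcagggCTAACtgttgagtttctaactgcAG
Ddb1 intron 24: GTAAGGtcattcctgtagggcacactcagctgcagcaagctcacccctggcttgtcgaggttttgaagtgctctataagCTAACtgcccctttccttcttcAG
Commd3 intron 2: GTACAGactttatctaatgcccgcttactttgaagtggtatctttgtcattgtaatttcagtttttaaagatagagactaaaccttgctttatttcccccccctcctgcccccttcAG

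Of the 5 introns that gained reads, Hmgxb4 intron 3 lies at chr8:74999709-74999812, Gadd45b intron 1 at chr10:80930360-80930447, Syvn1 intron 6 at chr19:6049898-6049991, Nip7 intron 2 at chr8:107057180-107057272 and Zbtb17 intron 7 at chr4:141464479-141464559, each on the plus strand. Hmgxb4, a high mobility group protein gene, had 81.0%, 79.4%, 93.5% and 90.5% of the reads of intron 3 inside it in the 4 H3B-8800 tumors, against 6.82%, 0%, 2.70% and 7.14% in the 4 vehicle tumors. Gadd45b, a stress-induced gene, had 85.7%, 76.2%, 81.8% and 75.0% in intron 1 with H3B-8800, against 2.63%, 0%, 0% and 0% with vehicle. In both introns every H3B-8800 tumor lay far above every vehicle tumor. Syvn1, a ubiquitin ligase of the endoplasmic reticulum, had 85.6%, 88.5%, 72.6% and 77.2% in intron 6 with H3B-8800, against 6.67%, 0%, 6.80% and 8.62% with vehicle. Nip7, a ribosome assembly factor, had 84.9%, 73.6%, 83.8% and 77.1% in intron 2 with H3B-8800, against 8.11%, 2.75%, 3.33% and 4.17% with vehicle. Zbtb17, the transcription factor Miz-1, had 97.0%, 71.1%, 79.2% and 79.6% in intron 7 with H3B-8800, against 11.8%, 2.22%, 4.84% and 14.8% with vehicle. The 5 introns were picked for these rises, so the values are a description.

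The 5 introns that were not called lie at chr11:69839269-69839365 (Tmem256 intron 3), chr10:21996110-21996222 (Sgk1 intron 4), chr14:55580973-55581051 (Psme1 intron 9), chr19:10627659-10627761 (Ddb1 intron 24) and chr2:18674007-18674124 (Commd3 intron 2), again on the plus strand. Tmem256 intron 3 had 4.99%, 5.28%, 4.99% and 3.58% of its reads inside it with H3B-8800, against 5.50%, 4.60%, 4.43% and 4.50% with vehicle. Psme1, a subunit of the proteasome activator PA28, had 1.79%, 2.99%, 1.69% and 1.21% in intron 9 with H3B-8800, against 1.69%, 0.923%, 2.48% and 2.12% with vehicle. Ddb1, which recognises damaged DNA in a ubiquitin ligase complex, had 3.74%, 2.04%, 3.53% and 1.43% in intron 24 with H3B-8800, against 2.19%, 2.47%, 1.63% and 2.94% with vehicle. In these introns the groups overlapped, and the rise seen in most short introns was not detectable. They were picked for not being called and for a low percent with H3B-8800, so these values too are a description. CTNAC stood in the window in Zbtb17 among the introns that rose, and in Psme1 and Ddb1 among those not called. The GC content was 51.0% to 74.1% in the first 5 and 37.1% to 54.4% in the other 5. Of 973 introns of at most 120 bases that could have been chosen, 688 were called higher and 7 lower, and 44 met the conditions of the second set.

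For each of 163337 introns of 17596 genes the files give reads inside the intron and reads overlapping it. The second minus the first was used as reads spliced across it. The sources used here do not define an overlapping read, so reads across an exon-intron edge may be counted as spliced. The H3B-8800 libraries held 14765437, 14875761, 17767484 and 13634455 spliced reads in replicates 1 to 4, and the vehicle libraries held 15113764, 13721959, 14609001 and 11764084. Gene levels are spliced reads summed over a gene's introns, as counts per library total scaled by TMM (CPM). They are not divided by length, so levels are compared between samples and not between genes. The luminal keratin gene Krt8 lay at 1467 to 2023 CPM with H3B-8800 and at 1135 to 2152 CPM with vehicle. Epcam lay at 1165 to 1683 CPM and 1528 to 1951 CPM. Krt18, Cdh1 and Esrp1 were at 187 CPM or more in every library. These markers of the labelled mammary epithelium were thus present throughout. Krt19, another luminal keratin gene, varied widely, at 19.3 to 89.5 CPM with H3B-8800 and 1.10 to 117 CPM with vehicle. Libraries stood apart in other tissue markers. Summed over 20 skeletal muscle genes, H3B-8800 replicates 1 to 4 held 602, 356, 12.03 and 17.3 CPM, against 21.7, 18.1, 12.5 and 15.6 CPM with vehicle. Summed over 14 adipocyte genes they held 134, 155, 369 and 883 CPM, against 148, 139, 120.2 and 169 CPM with vehicle. Counts of calls are therefore also given where they move by 1.5 times or more without replicates 1 and 2, called muscle-rich here, and without replicates 3 and 4, called adipocyte-rich. Each of these fits holds fewer H3B-8800 libraries, so calls can be lost through fewer replicates alone. In bulk RNA, fewer cells of a type and less RNA per cell cannot be told apart. The p-values of gene and intron tests measure spread between tumors, pooled over all groups of the study unless the PyMT-M libraries were fitted alone. They thus also rest on tumors of the other models, while the exact permutation test uses the PyMT-M libraries only. With these fitted alone, 4 of the 103 genes described lost their call: Pi16, Egf, Dcn and Adipoq. Over all genes, 1508 were then called higher and 1932 lower, against 1328 and 1896.

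Among the introns tested, more reads lay inside with H3B-8800. Of 120544 introns without an annotated exon, 30051 were tested, under minimums that include a mean of at least 5 intronic reads over all libraries. Introns that gained reads with H3B-8800 could thus enter through it, while introns spliced in nearly every tumor could be left out. The percent of reads inside, per intron, had a median, over 30051 introns without an annotated exon, of 38.5%, 32.8%, 29.6% and 33.3% in the 4 H3B-8800 tumors, against 11.4%, 6.29%, 10.1% and 15.1% in the 4 vehicle tumors. The groups did not overlap, and vehicle replicate 4 was the highest of its group. The means were 33.6% ± 3.67 with H3B-8800 and 10.7% ± 3.65 with vehicle (SD, n = 4 each), a difference of 22.8 percentage points with p = 0.0286 in a 2-sided exact permutation test, the smallest p that 4 against 4 allows. Over all introns with values, tested or not, reads inside were 27.8%, 25.3%, 17.8% and 24.0% of overlapping reads with H3B-8800. With vehicle they were 14.6%, 10.5%, 12.1% and 20.001%, so H3B-8800 replicate 3 lay below vehicle replicate 4. Longer introns have more room for reads, so this percent does not give the share of transcripts that kept an intron.

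**Figure D1:**
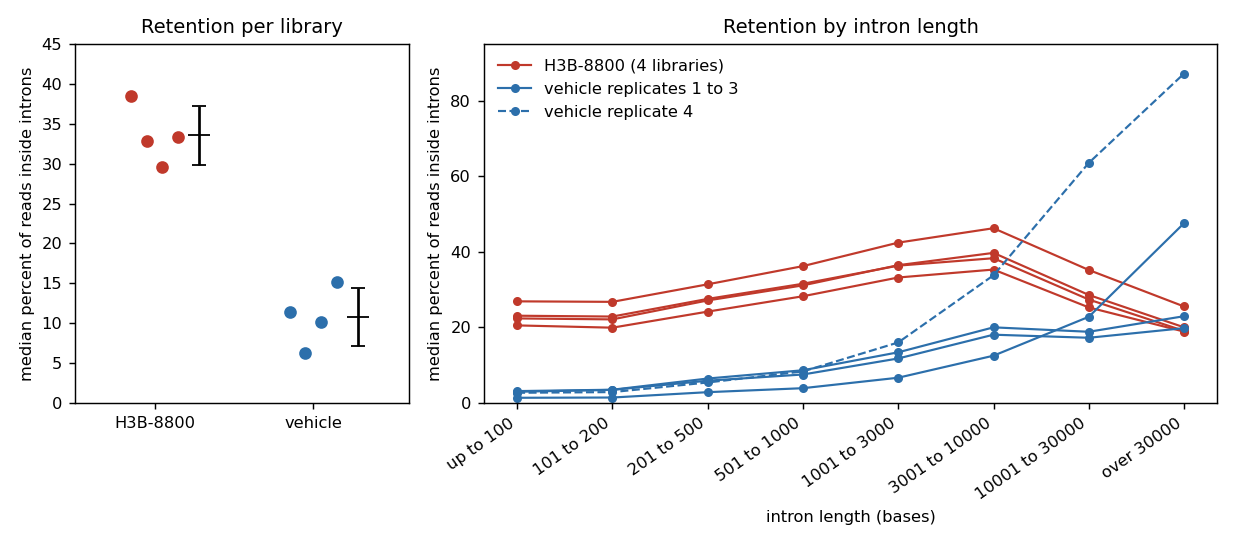
Median share, in percent, of reads inside an intron, over tested introns without an annotated exon. Left, 1 point per library with the group mean and SD (33.6% ± 3.67 with H3B-8800 and 10.7% ± 3.65 with vehicle). Right, the same median by class of intron length in bases, 1 line per library, with vehicle replicate 4 dashed: the H3B-8800 lines lie above the vehicle lines up to 10000 bases, and vehicle replicate 4 lies highest in the 2 longest classes.

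Single introns were tested for intronic reads, scaled by the gene's spliced reads, with edgeR's quasi-likelihood test, adjusted over 52042 introns in 9859 genes. With H3B-8800, 28441 introns (54.7%) were higher and 2953 (5.67%) lower at an adjusted p under 0.05, and the median log2 change was 1.57. At least 1 intron was higher in 7638 genes, and at least 1 was lower in 2010. Among introns without an annotated exon, 17662 of 30051 (58.8%) were higher and 1152 (3.83%) lower. Among the 21991 introns that an annotated exon of any gene, on either strand, overlaps at least in part, 49.0% were higher and 8.19% lower. Without vehicle replicate 4 the introns called lower fell in number to 1313, while 30213 were called higher.

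Among the introns tested, the share called higher fell with intron length. An intron was tested only with a mean of at least 5 intronic reads over all 25 libraries, those with H3B-8800 included. Short introns with few reads in vehicle tumors could thus enter through the H3B-8800 tumors, and how far this shaped the shares was not tested. Of introns without an annotated exon and of up to 100 bases, 82.6% of 1183 were higher with H3B-8800 and 0.0845% lower, with a median log2 change of 3.07. The shares higher were 79.0% at 101 to 200 bases, 71.2% at 201 to 500, 69.8% at 501 to 1000, 61.3% at 1001 to 3000 and 44.4% at 3001 to 10000. Of 1572 introns of 10001 to 30000 bases, 13.04% were higher and 22.8% lower, and of 356 introns over 30000 bases, 1.69% were higher and 68.8% lower, with a median log2 change of -2.51.

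The share of the longest introns called lower was smaller without 1 library, with another test and with the 8 libraries fitted alone. In introns over 30000 bases the median percent was 25.5%, 19.05%, 18.9% and 20% with H3B-8800, against 22.95%, 47.6%, 19.8% and 87.2% with vehicle. Vehicle replicates 1 and 3 lay among the H3B-8800 tumors, and vehicle replicate 4 stood far above. Without vehicle replicate 4, 21.9% of these introns were lower and 6.74% higher, with a median log2 change of -0.70. With vehicle replicate 4 kept and all 25 libraries of the study in the fit, limma called 28.7% of them lower, against 68.8% with edgeR. Fitted to the 8 libraries of this comparison alone, edgeR called 42.1% lower, with a median log2 change of -2.51. In the class of 10001 to 30000 bases the direction was not settled. The median log2 change was -0.41 with all 8 libraries and 0.59 without vehicle replicate 4, where 27.3% were higher and 4.26% lower. With that library kept, more were also higher than lower in other settings: limma called 13.4% higher and 8.52% lower, and among introns with means of at least 20 intronic and 20 spliced reads 24.4% were higher and 15.4% lower. In introns of up to 100 bases every H3B-8800 tumor lay above every vehicle tumor: the medians were 26.9%, 23.1%, 20.5% and 22.4% with H3B-8800, against 3.12%, 1.36%, 2.96% and 2.68% with vehicle.

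**Figure D2:**
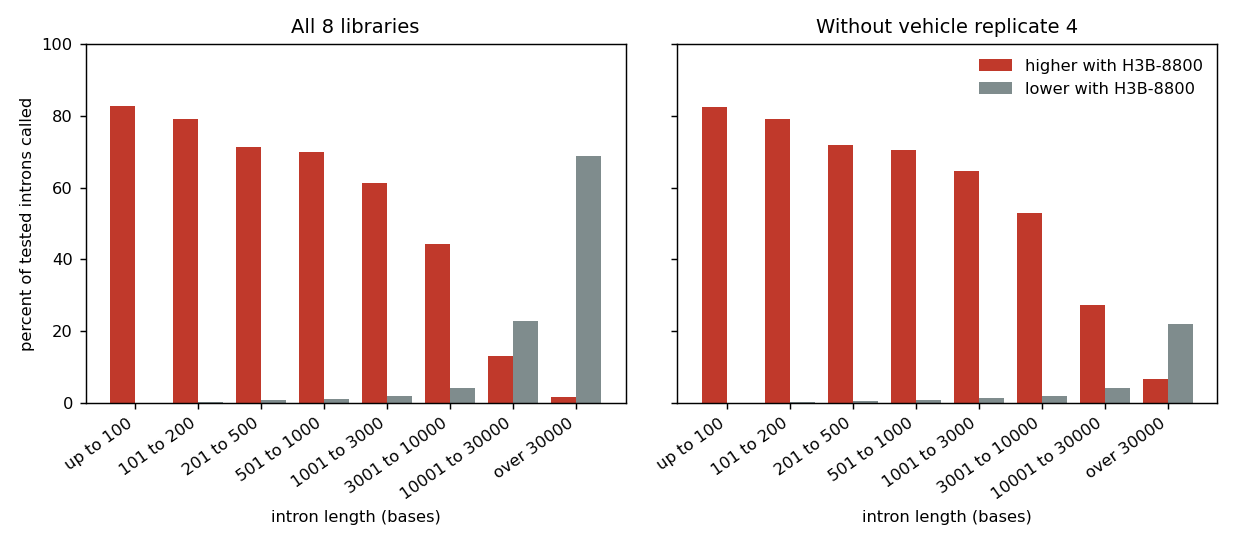
Percent of tested introns without an annotated exon called higher or lower with H3B-8800, by class of intron length in bases. The fits hold the study's other libraries too, with all 8 libraries of this comparison or without vehicle replicate 4. With all libraries the share higher is 82.6% at up to 100 bases and 1.69% over 30000 bases, and the share lower in the longest class is 68.8% with all libraries and 21.9% without vehicle replicate 4.

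Among introns that passed the same filter, shares also varied with position and base composition. Internal introns were higher in 62.2% of 22967, first introns in 45.4% of 2163 and last introns in 48.8% of 4715, and first introns were lower in 13.5%. Among internal introns alone, the share higher was 85.5% up to 100 bases, and the share lower was 57.5% over 30000 bases. Sequence could be read for 4291 tested introns of at least 70 bases, 8.25% of those tested, of which 62.4% were higher. In 5 equal bins of GC content, low to high, the share higher was 56.0%, 58.0%, 61.9%, 66.9% and 69.3%, with the lowest bin at 20.4% to 42.9% GC and the highest at 58.2% to 83.1%. Short introns are also rich in GC: within introns of up to 200 bases the share was 68.5% in the lowest bin and 70.4% in the highest, and within longer introns it was 53.1% and 66.2%. In 5 bins of the T content near the intron end, of 704 to 1173 introns each, the shares were 70.8%, 65.8%, 60.4%, 58.0% and 53.8%, low to high. Within introns of up to 200 bases the share was 72.9% in the lowest bin and 67.7% in the highest. Within longer introns it was 68.4% and 50.4%. The motif CTNAC, on the transcribed strand between bases 50 and 16 before the end, was present in 24.4% of the introns read. Introns with it were higher in 61.01% and introns without it in 62.9%. Introns with the 5′ splice site of the minor spliceosome were higher in 13 of 24 (54.2%).

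The introns with the largest fitted rise went with no intronic read in any vehicle tumor. Of 12 described, none holds an annotated exon, and every fold is a lower bound set against a floor of 3 reads over the vehicle group, scaled by the gene's spliced reads. Josd1, which encodes a deubiquitinase of the Josephin family, had 85.7%, 80%, 71.0% and 77.5% of the reads of intron 2 inside it with H3B-8800, against 0% in all 4 vehicle tumors. These were 90, 44, 44 and 55 intronic reads with H3B-8800, where the vehicle tumors had 46, 41, 32 and 21 overlapping reads. The intron lies on the minus strand at chr15:79677292-79677398, is 107 bases long and was at least 109.7-fold higher (adjusted p = 6.94e-09, edgeR). Cdyl, a chromodomain corepressor, had 90.4%, 83.6%, 87.7% and 79.1% in its 1156-base intron 2 with H3B-8800 (chr13:35856920-35858075, plus strand), against 0% in all 4 vehicle tumors, at least 117-fold higher (adjusted p = 7.72e-09, edgeR). In both introns most reads lay inside the intron in every H3B-8800 tumor and none did with vehicle.

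Genes of the kinetochore, the secretory pathway and the nuclear pore were among them. Zwint, which links the kinetochore to checkpoint proteins, had 45.8%, 34.0%, 34.9% and 27.3% in intron 5 with H3B-8800, at least 86.3-fold higher. Sec13, a coat protein of COPII vesicles and of the nuclear pore, had 38.5%, 16.1%, 21.0% and 22.5% in intron 3, at least 108-fold higher. Nup205, a scaffold of the nuclear pore, had 65.6%, 37.5%, 41.0% and 46.7% in intron 28, at least 40.5-fold higher. Vehicle tumors were at 0% in each of these, with 111 to 277 overlapping reads per tumor in the Zwint and Sec13 introns.

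Arfgap1, the GTPase activator of ARF1, had 70.5%, 38.4%, 46.6% and 52.5% in intron 1 with H3B-8800 and 0% in each vehicle tumor, at least 117-fold higher. Apba3, an adaptor of the Mint family, had 69.6%, 47.5%, 43.1% and 44.3% in intron 1 and 0% in each vehicle tumor, at least 152-fold higher. Pelp1, a nuclear receptor coregulator, had 75.5%, 63.2%, 73.7% and 61.8% in intron 7 and 0% with vehicle, at least 87.9-fold higher. The remaining introns of this kind were intron 10 of Sh3pxd2a, the podosome scaffold Tks5 (55.3% to 77.5% with H3B-8800), intron 4 of Nploc4, a cofactor of the p97 ATPase (35.1% to 47.7%), intron 5 of Gmnn, the replication licensing inhibitor geminin (33.3% to 44.9%), and intron 6 of the matrix gene Tgfbi (6.38% to 40.7%). The last rested on 3 to 22 intronic reads per H3B-8800 tumor and on 4 to 43 overlapping reads per vehicle tumor, and was at least 11.9-fold higher.

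Introns without an annotated exon that were lower with H3B-8800 owed much of their size to vehicle replicate 4. Tmem135 intron 4 (chr7:89243987-89279966, minus strand, 35980 bases) had 1.30%, 1.29%, 0% and 0% with H3B-8800, against 9.35%, 14.8%, 7.04% and 68.5% with vehicle. Arglu1, a splicing and transcription coregulator, had 0%, 0.565%, 0% and 0% in intron 1 (chr8:8683974-8689976, minus strand) with H3B-8800, against 3.95%, 4.76%, 5.37% and 32.3% with vehicle. Sos1, the RAS exchange factor, had 0%, 0%, 0% and 6.25% in intron 6 (chr17:80445713-80449257, minus strand) with H3B-8800, against 34.1%, 7.14%, 66.7% and 55.2% with vehicle. The groups did not overlap in any of these introns, which the rule for naming them required. Vehicle replicate 4 was the highest of its group in the first pair and not in Sos1. Pkp4 intron 3, Ank intron 2 and Snd1 intron 14 were at 0% to 2.21% with H3B-8800, against 1.06% to 58.8% with vehicle. Epc2 intron 1 was at 0% to 7.69% with H3B-8800, against 9.09% to 89.9% with vehicle. Glis3 intron 2 differed in level, with 63.6%, 64.7%, 52.2% and 50% with H3B-8800, against 87.8%, 96.9%, 83.6% and 99.6% with vehicle. The log2 changes of these 8 introns lay between -5.88 and -5.16, and without vehicle replicate 4 between -4.78 (Sos1) and -2.87 (Ank), each still called. Those that moved by over 1.5 times without that library were Tmem135 (-3.83), Ank (-2.87), Glis3 (-3.10) and Epc2 (-3.36). Without H3B-8800 replicate 3, which held the 4 reads of its group, the Snd1 intron reached -8.54.

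Introns that an annotated exon overlaps can gain or lose reads with another transcript, so their percent is not retention alone. The exon need not lie wholly inside the intron or belong to the same gene. Herc3, a HECT ubiquitin ligase, had no read in intron 13 in any H3B-8800 tumor, of 29, 27, 18 and 23 overlapping reads, against 80.3%, 62.1%, 65.8% and 67.3% of reads in the 4 vehicle tumors. This intron (chr6:58874401-58876488, plus strand) was at least 82.7-fold lower (adjusted p = 4.59e-08, edgeR), with vehicle replicate 4 in the middle of its group. Itpr1, the inositol trisphosphate receptor of the endoplasmic reticulum, had 0% in intron 39 in all 4 H3B-8800 tumors, against 13.7%, 31.2%, 24.2% and 77.7% with vehicle (chr6:108418001-108423332, plus strand), at least 64.6-fold lower. Gbe1, the glycogen branching enzyme, had 0% in intron 3 with H3B-8800, against 19.05%, 25.5%, 5.00% and 77.8% with vehicle, at least 27.9-fold lower. Bnip3, a mitophagy receptor induced by hypoxia, had 0% in intron 2 with H3B-8800, against 7.17%, 1.05%, 3.01% and 0.806% with vehicle, at least 5.99-fold lower. Intron 1 of the latrophilin gene Adgrl2 had a log2 change of -6.66, and of -3.83 without vehicle replicate 4. Intron 2 of the kinase gene Tnik had -5.98, and -3.25 without that library.

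**Figure D3:**
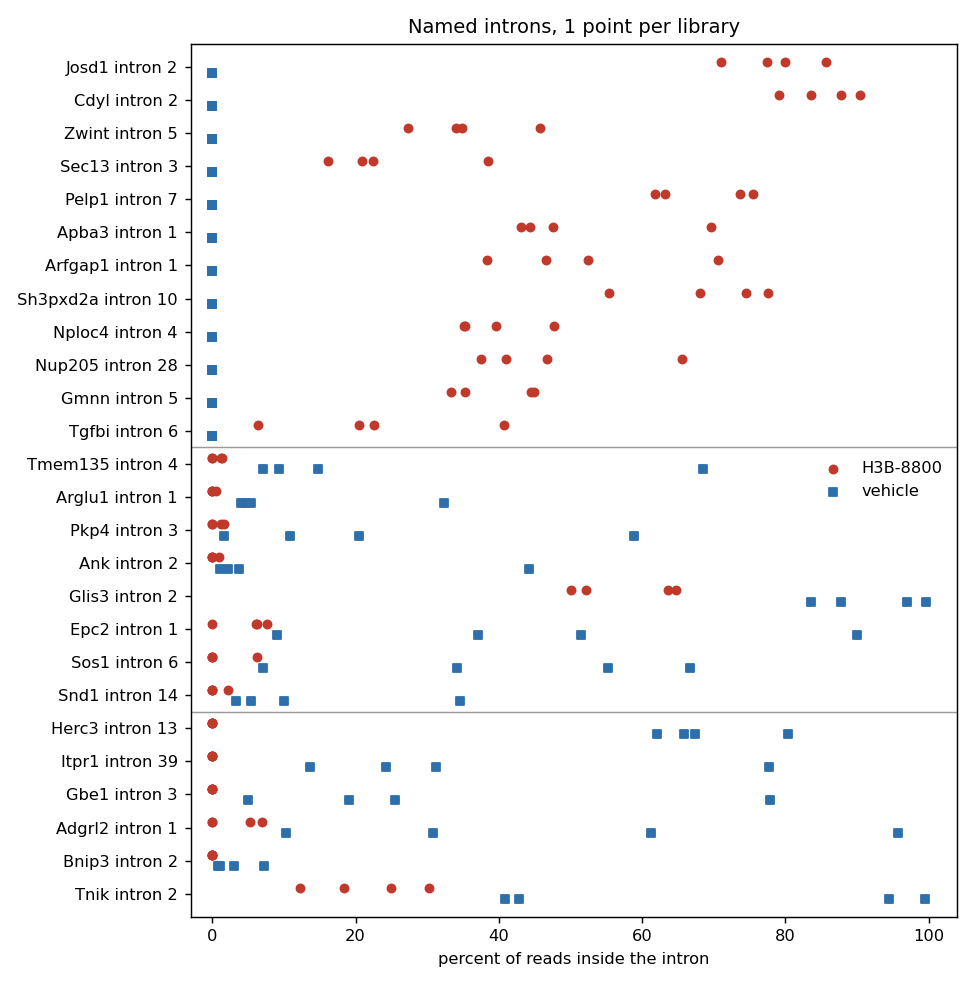
Percent of reads inside the intron in each of the 4 H3B-8800 and 4 vehicle libraries. Shown are 12 introns higher and 8 lower without an annotated exon, and 6 lower that an annotated exon overlaps. Introns of the first kind sit at 0% in every vehicle library, and Herc3 intron 13 sits at 0% in every H3B-8800 library and at 62.1% to 80.3% with vehicle.

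A read kept inside an intron is not counted as spliced, so gene levels from spliced reads and intron reads are tied by construction. Among genes with at least 5 tested introns, those with up to 20% of introns higher had a median log2 change of spliced reads of 0.17 (719 genes), and those with over 80% had -0.34 (1095 genes). In between, the medians were 0.05, -0.04 and -0.15. The share of genes called lower was 9.04% in the first class and 38.9% in the last, and the share called higher was 19.5% and 4.57%. When all overlapping reads were summed instead, the medians were -0.12 in the first class and 0.07 in the last. For this reason each gene below whose call ended with overlapping reads is given with that value.

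At the gene level 3224 of 13001 genes (24.8%) were called by edgeR's quasi-likelihood test with Benjamini-Hochberg adjustment, 1328 higher (10.2%) and 1896 lower (14.6%) with H3B-8800. The median log2 change over all genes was 0.02. Of the genes called higher, 717 were also called higher with overlapping reads, which is 54.0% of the 1328 and 42.3% of the 1696 called that way, and 3 were called lower. Of the genes called lower, 1062 were also lower with overlapping reads, 56.0% of the 1896 and 59.8% of 1777, and 77 were called higher. Without the adipocyte-rich libraries 629 genes were higher and 1210 lower, and without the muscle-rich libraries 791 were higher and 1108 lower. Leaving out H3B-8800 replicate 3 left 839 genes higher, and leaving out vehicle replicate 4 left 857.

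The 14 genes with the largest fitted rise are described first. The rule for naming them, and those with the largest fall, required that the groups did not overlap. Bdh1, the mitochondrial enzyme that interconverts the ketone bodies, had 9.24, 12.3, 5.35 and 9.88 CPM with H3B-8800, against 1.46, 1.504, 0.659 and 0.778 CPM with vehicle. Its groups averaged 9.199 ± 2.89 and 1.10 ± 0.444 CPM (SD), a log2 change of 3.04 ± 0.36 (SE, adjusted p = 7.22e-06). Pon3, a paraoxonase that hydrolyses lactones, had 18.6, 50.01, 69.2 and 18.9 CPM with H3B-8800, against 4.203, 4.44, 7.10 and 2.33 CPM with vehicle (3.11 ± 0.43, adjusted p = 3.70e-05). In both genes the lowest H3B-8800 tumor stood more than the spread of the vehicle group above the highest vehicle tumor. Spon2, a secreted matrix protein gene, had 4.29, 4.49, 7.63 and 15.3 CPM with H3B-8800, against 1.16, 1.09, 0.293 and 0.519 CPM with vehicle (3.33 ± 0.64, adjusted p = 0.000795). Selp, the P-selectin by which vessels and platelets catch leukocytes, had 5.31, 5.50, 3.93 and 5.61 CPM with H3B-8800, against 0.244, 0.479, 0.732 and 0.865 CPM with vehicle (3.14 ± 0.82, adjusted p = 0.00803). The H3B-8800 tumors were closely alike in Selp.

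Other genes of this set varied more between H3B-8800 tumors. Fam25c had the largest fitted rise, with 3.93, 1.14, 1.73 and 14.2 CPM with H3B-8800, against 0, 0.137, 0.146 and 0 CPM with vehicle (6.02 ± 1.12, adjusted p = 0.00101). Bpifa2, a secreted protein of salivary glands, had 4.44, 25.2, 28.9 and 2.24 CPM with H3B-8800, against 0, 0.752, 2.12 and 1.30 CPM with vehicle (3.87 ± 0.94). The groups did not overlap in either gene, as the naming rule required, though the H3B-8800 tumors differed widely among themselves. Egf, the epidermal growth factor precursor, had 40.7, 53.4, 141 and 37.9 CPM with H3B-8800, against 1.58, 5.81, 26.1 and 5.27 CPM with vehicle (2.82 ± 0.69). Chit1, a chitinase made by macrophages, had 28.3, 22.8, 96.3 and 138 CPM with H3B-8800, against 2.07, 4.10, 10.8 and 15.1 CPM with vehicle (3.16 ± 0.63). Mgl2, a lectin of macrophages and dendritic cells, had 7.93, 9.39, 20.1 and 24.2 CPM with H3B-8800, against 5.85, 0.547, 0.0732 and 1.04 CPM with vehicle (2.997 ± 0.84). Chit1 and Mgl2 were highest in the adipocyte-rich replicates 3 and 4. The summed macrophage genes lay at 4361, 4294, 5903 and 4823 CPM with H3B-8800, against 2484, 1728, 2879 and 1236 CPM with vehicle, and their part in these 2 genes was not tested.

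The call of several of these genes was lost when libraries were left out, which also leaves fewer replicates. Without the adipocyte-rich libraries the adjusted p was 0.0949 for Chit1, 0.139 for Mgl2, 0.055 for Egf, 0.0549 for Susd2, 0.0831 for Lyz1, 0.103 for Itgbl1, 0.282 for Pi16 and 0.383 for Heph. Pi16, a marker of a fibroblast population, had 3.35, 4.16, 4.56 and 34.1 CPM with H3B-8800, against 2.80, 0.0684, 0.0732 and 0.605 CPM with vehicle. Its log2 change of 3.63 ± 1.16 was 2.12 without H3B-8800 replicate 4 (adjusted p = 0.165), and the adjusted p was 0.0622 to 0.0715 without vehicle replicate 2, 3 or 4. Without vehicle replicate 1 the log2 change of Pi16 was 5.63, and that of Mgl2 was 4.86, both still called. With the 8 libraries fitted alone in edgeR, the adjusted p was 0.0634 for Pi16 and 0.0515 for Egf. Lyz1, the lysozyme of Paneth cells, was at 8.65 to 24.1 CPM with H3B-8800 and 0.0684 to 4.17 CPM with vehicle. Its call also ended without vehicle replicate 2 (adjusted p = 0.0583) or 4 (0.0613) or the muscle-rich libraries (0.0525). Itgbl1, an integrin beta-like gene, was at 7.42 to 13.5 CPM with H3B-8800 and 0.410 to 3.90 CPM with vehicle. Its call also ended without H3B-8800 replicate 3 (0.0501), vehicle replicate 2 (0.0716) or 4 (0.0726), or the muscle-rich libraries (0.0593). Heph, a ferroxidase that exports iron, had a log2 change of 3.02 ± 0.99, but of 0.05 with overlapping reads (adjusted p = 0.974). Its call also ended with the median over introns as gene count (2.07, 0.108) and with replicate number as a block (3.01, 0.0601). Leaving out H3B-8800 replicate 3 (0.108) or 4 (0.0516) or vehicle replicate 1 (0.0786), 3 (0.0577) or 4 (0.0865) ended it too. Susd2, a sushi domain membrane protein, had 14.6 to 58.8 CPM with H3B-8800 and 2.67 to 8.42 CPM with vehicle (2.79 ± 0.70).

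The 14 genes with the largest fitted fall were mostly low in CPM with H3B-8800. Ankrd37, an ankyrin repeat gene known as a target of hypoxia-inducible factor, had 0.436, 0.201, 0.157 and 0.299 CPM with H3B-8800, against 12.4, 3.21, 2.71 and 6.05 CPM with vehicle (-4.43 ± 0.82, adjusted p = 0.000584). Slc37a1, a sugar phosphate carrier of the endoplasmic reticulum, had 5.16, 7.31, 6.76 and 5.76 CPM with H3B-8800, against 41.1, 31.0, 33.5 and 43.4 CPM with vehicle (-2.57 ± 0.37, adjusted p = 4.80e-05). Smr3a, a gene of salivary glands, had 12.1, 20.6, 13.2 and 7.26 CPM with H3B-8800, against 62.7, 99.4, 82.2 and 182 CPM with vehicle (-3.001 ± 0.40, adjusted p = 0.000142). Every vehicle tumor lay above every H3B-8800 tumor in these genes, which the naming rule required. Fhl3, a LIM domain protein, had 0.582, 1.54, 0.550 and 0.898 CPM with H3B-8800, against 6.09, 6.02, 5.86 and 11.1 CPM with vehicle (-2.99 ± 0.29, adjusted p = 9.49e-07). Dqx1, a helicase-like gene, had 0.873, 0.670, 0.708 and 1.05 CPM with H3B-8800, against 8.28, 5.61, 5.42 and 10.5 CPM with vehicle (-3.16 ± 0.39, adjusted p = 1.31e-05). Trim45, a RING finger ubiquitin ligase, had 0.509, 1.41, 0.944 and 0.673 CPM with H3B-8800, against 6.21, 5.81, 4.68 and 8.82 CPM with vehicle (-2.83 ± 0.36, adjusted p = 1.58e-05). The same rule applied to these 3 genes, where no H3B-8800 tumor reached the lowest vehicle tumor.

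The rest of the falling set was Fam64a, a mitotic gene also called Pimreg (-2.86 ± 0.51), Proser3 (-2.84 ± 0.28), the kininogen gene Kng2 (-3.15 ± 0.58), the cardiac troponin gene Tnni3 (-2.996 ± 0.57), Smtnl2 (-3.15 ± 0.84), Ahsg, Rin1 and Mbip. Kng2 changed by -0.77 with overlapping reads, Tnni3 by -1.86, Fhl3 by -1.58 and Fam64a by -1.39, all still called. Rin1, an effector of RAS, had 0.800, 0.872, 0.236 and 1.12 CPM with H3B-8800, against 6.82, 7.32, 3.81 and 3.63 CPM with vehicle (-2.81 ± 0.33), but -0.58 with overlapping reads (adjusted p = 0.158). Mbip, a subunit of the ATAC acetyltransferase complex, had 1.53, 4.49, 2.04 and 2.24 CPM with H3B-8800, against 16.8, 15.2, 12.7 and 17.03 CPM with vehicle (-2.57 ± 0.33), but -0.41 with overlapping reads (adjusted p = 0.109). For Ahsg, the plasma protein fetuin A, the adjusted p was 0.0536 without vehicle replicate 4, 0.0759 without the adipocyte-rich and 0.0578 without the muscle-rich libraries. For Smtnl2 it was 0.111 without the adipocyte-rich libraries.

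**Figure D4:**
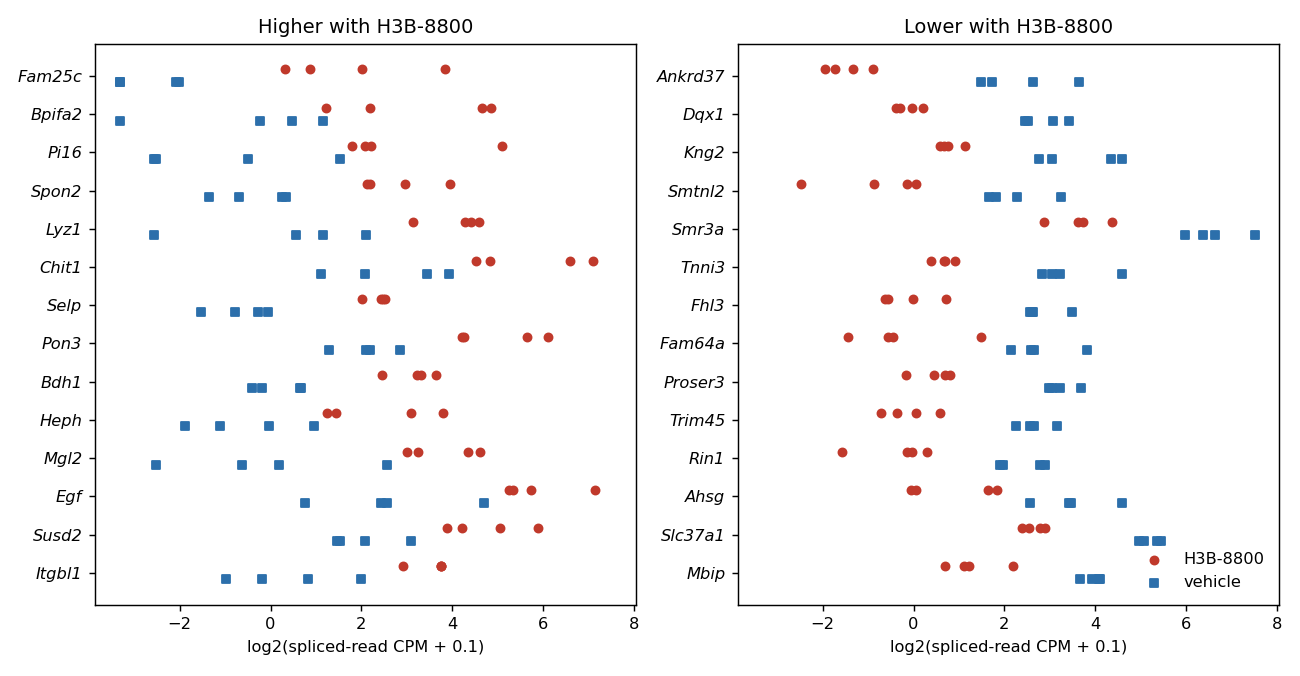
Level of the 14 genes with the largest fitted rise and the 14 with the largest fitted fall, as log2(CPM + 0.1) in each of the 4 H3B-8800 and 4 vehicle libraries. The groups do not overlap in any of these genes, which the rule for naming them required; Slc37a1 sits at 5.16 to 7.31 CPM with H3B-8800 and 31.0 to 43.4 CPM with vehicle.

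Gene lists were described by counts of members called, read against the 10.2% higher and 14.6% lower of all genes tested. These shares belong to the adjusted calls of the main fit. The shares of all genes at an unadjusted p under 0.05 are not given here. List counts at that looser threshold therefore have no such comparison and cannot be read as more than expected. Of 8 tested genes of SF3B and the U2 snRNP, 3 were higher and 0 lower (edgeR; 2 and 0 with overlapping reads), with a median log2 change of 0.20. At an unadjusted p under 0.05, and with DESeq2, 3 were higher and 0 lower. Sf3b3, the scaffold subunit of SF3B, had 277, 284, 276 and 328 CPM with H3B-8800, against 227, 221, 191 and 224 CPM with vehicle (0.43 ± 0.11, adjusted p = 0.00534), and 0.38 without the adipocyte-rich libraries (adjusted p = 0.0553). Sf3b1, the subunit mutated in several cancers and central to drug binding, had 852, 776, 747 and 739 CPM with H3B-8800, against 537, 526, 469 and 679 CPM with vehicle (0.49 ± 0.14, adjusted p = 0.0156). Its change was 0.07 with overlapping reads (adjusted p = 0.691) and 0.43 without the muscle-rich libraries (adjusted p = 0.116). Without either pair of libraries 1 of the 8 genes was called.

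Factors that act beside SF3B at the branch point went both ways, with 4 of 19 higher and 4 lower. Sf1, the first protein to bind the branch point, had 114, 95.3, 94.2 and 97.9 CPM with H3B-8800, against 170.3, 156, 162 and 166 CPM with vehicle (-0.71 ± 0.11, adjusted p = 0.000106). U2surp, a U2 snRNP-associated SR-related protein, had 68.4, 60.9, 60.7 and 68.5 CPM with H3B-8800, against 152, 139, 131 and 126 CPM with vehicle (-1.08 ± 0.12, adjusted p = 4.73e-06). Both fell with overlapping reads as well (-0.71 and -1.18). Ddx42, an SF3B-associated helicase, fell (-0.78 ± 0.15). Zrsr2, which reads the 3′ splice site of minor introns, had 46.0, 43.4, 46.6 and 40.8 CPM with H3B-8800, against 31.7, 29.5, 30.4 and 22.1 CPM with vehicle (0.64 ± 0.12, adjusted p = 0.000546). Of the 11 genes of the minor spliceosome tested, 2 were higher and 1 lower, 1 and 0 without the muscle-rich and 2 and 0 without the adipocyte-rich libraries.

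Regulators of splice site choice were called in both directions. Of 25 SR and SR-related proteins, which bind exons and recruit U1 and U2AF, 10 were higher and 2 lower, with a median log2 change of 0.43. With overlapping reads 4 were higher and 8 lower, so the balance turned with the way reads are summed. Of their 138 tested introns 51 (37.0%) were higher and 26 lower, against 54.7% higher and 5.67% lower of all introns tested. This difference was not tested. Luc7l3, a U1-associated factor, had 267, 228, 225 and 259.7 CPM with H3B-8800, against 150.1, 118, 126 and 122 CPM with vehicle (0.92 ± 0.10, adjusted p = 4.14e-06; 0.60 with overlapping reads). Srsf3 rose by 0.65 ± 0.12 and Rbm39 by 0.60 ± 0.12, but their changes were 0.20 and 0.17 with overlapping reads and not called (adjusted p = 0.211 and 0.248). Rsrc2 had 59.1, 60.9, 60.9 and 62.5 CPM with H3B-8800, against 129, 125, 118 and 126 CPM with vehicle (-1.04 ± 0.14, adjusted p = 2.96e-05). Without the muscle-rich libraries 5 SR genes were higher and 1 lower, and without the adipocyte-rich ones 7 and 2.

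Of 28 hnRNP genes, whose proteins coat nascent RNA, 6 were higher and 8 lower (5 and 10 with overlapping reads), 4 and 4 without the muscle-rich and 5 and 7 without the adipocyte-rich libraries. Tardbp, which encodes TDP-43 and limits its own mRNA, had 245, 191, 215 and 250.1 CPM with H3B-8800, against 124, 106, 114 and 92.3 CPM with vehicle (1.05 ± 0.18, adjusted p = 0.000305). Hnrnpdl had 167, 175, 176 and 186 CPM with H3B-8800, against 81.3, 68.5, 77.2 and 90.1 CPM with vehicle (1.15 ± 0.09, adjusted p = 1.54e-07), and 0.26 with overlapping reads (adjusted p = 0.118). Hnrnpu fell (-0.81 ± 0.12), as did Ptbp1, the polypyrimidine tract-binding protein, with 132, 110.5, 105 and 153 CPM with H3B-8800, against 209, 211, 194 and 187 CPM with vehicle (-0.68 ± 0.12, adjusted p = 0.000382). Tardbp, Hnrnpu and Ptbp1 kept their calls with overlapping reads.

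Of 8 kinases that phosphorylate SR proteins, 2 were lower, and 1 without either the muscle-rich or the adipocyte-rich libraries. Clk1 had 72.4, 79.6, 67.6 and 70.4 CPM with H3B-8800, against 195, 162, 115 and 305 CPM with vehicle (-1.42 ± 0.25, adjusted p = 0.000384; -0.92 with overlapping reads). Clk3 had a log2 change of -0.89 ± 0.26, which was 0.15 with overlapping reads (adjusted p = 0.607), -0.78 without vehicle replicate 4 (adjusted p = 0.0595), -0.78 without the adipocyte-rich libraries (0.135) and -1.01 without the muscle-rich ones (0.0579). Of 40 genes of the U1 and tri-snRNPs and the PRP19 complex, 2 were higher and 8 lower, and 1 and 3 without either the muscle-rich or the adipocyte-rich libraries. Of their tested introns 68.4% were higher, against 54.7% of all introns tested, a difference that was not tested and does not allow for intron length. The 8 were 5 without H3B-8800 replicate 3, vehicle replicate 1 or vehicle replicate 2. Xab2, a PRP19-associated factor, had 34.0, 50.5, 41.0 and 36.9 CPM with H3B-8800, against 88.1, 78.3, 79.6 and 119.8 CPM with vehicle (-1.17 ± 0.22), but -0.03 with overlapping reads (adjusted p = 0.943).

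**Figure D5:**
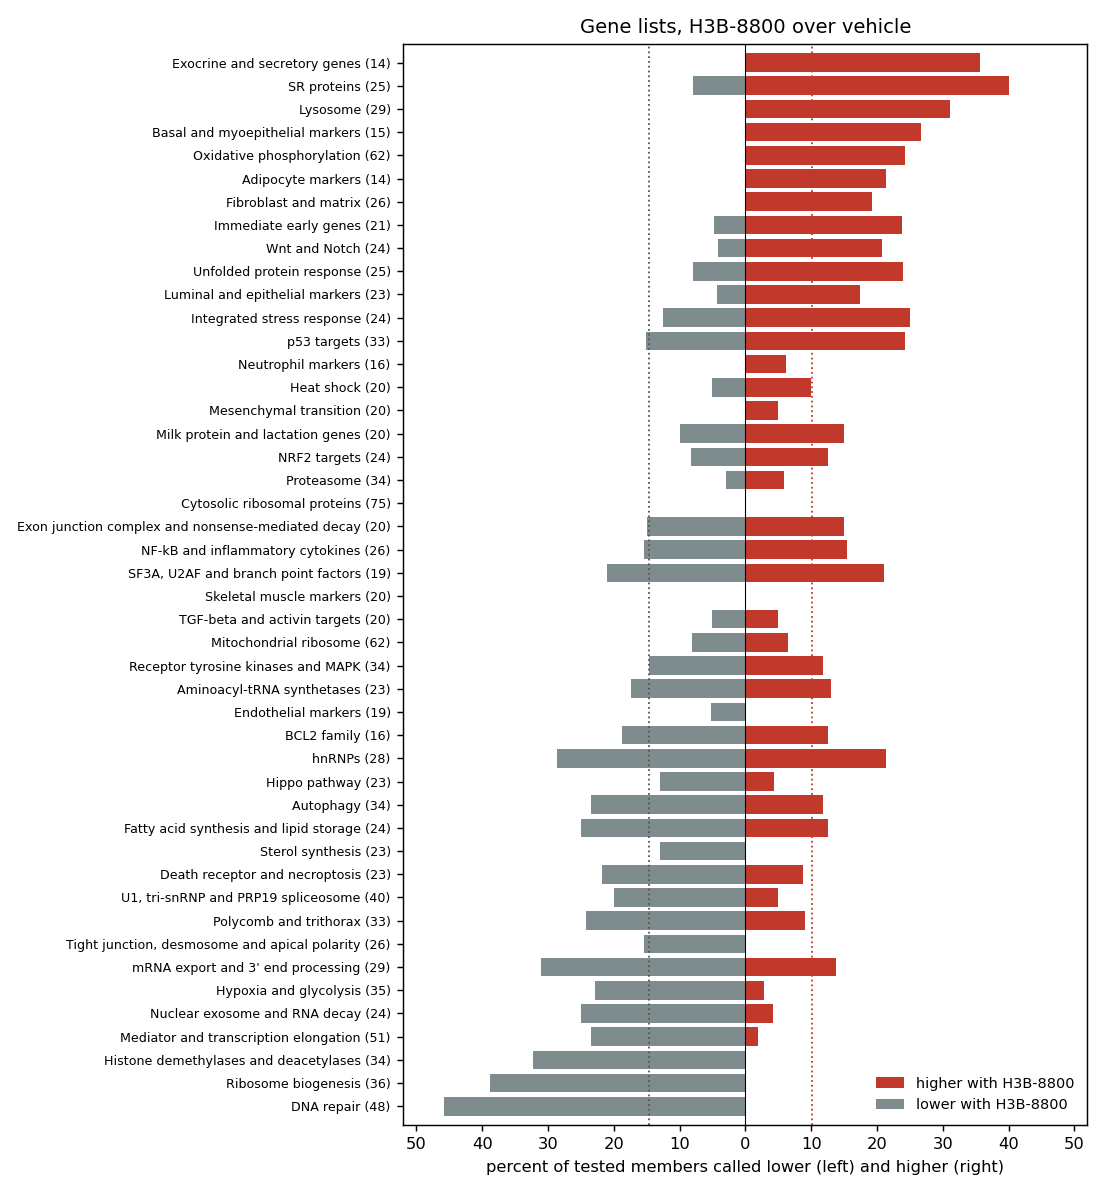
Percent of the tested members of each gene list called higher (right) or lower (left) with H3B-8800, for lists of at least 14 tested genes. Dotted lines mark 10.2% higher and 14.6% lower of all 13001 genes: DNA repair reaches 22 of 48 lower with 0 higher, and SR proteins 10 of 25 higher.

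Steps after splicing were also represented. Of 29 genes of mRNA export and 3′ end processing, 4 were higher and 9 lower, 2 and 7 without the muscle-rich libraries. Fip1l1, a subunit of the cleavage and polyadenylation complex, had 33.4, 33.9, 30.4 and 43.9 CPM with H3B-8800, against 106, 101, 88.9 and 107 CPM with vehicle (-1.51 ± 0.16, adjusted p = 2.76e-06). Wdr33, which reads the AAUAAA signal in the same complex, had 59.1, 48.1, 50.01 and 51.3 CPM with H3B-8800, against 25.9, 27.3, 22.2 and 23.7 CPM with vehicle (1.07 ± 0.13, adjusted p = 7.94e-06). Subunits of 1 complex thus moved in opposite directions, and both kept their call with overlapping reads (-1.14 and 0.71). Thoc1, of the THO export complex, fell (-1.40 ± 0.17), as did Pcf11, a termination factor (-1.04 ± 0.16). Of 24 genes of the nuclear exosome and RNA decay, 1 was higher and 6 lower, 0 and 4 without the muscle-rich and 1 and 4 without the adipocyte-rich libraries. Zfc3h1, which feeds polyadenylated nuclear RNA to the exosome, had 12.002, 24.7, 13.2 and 22.0 CPM with H3B-8800, against 95.3, 65.8, 91.6 and 87.9 CPM with vehicle (-2.24 ± 0.21, adjusted p = 5.42e-07; -1.25 with overlapping reads). Xrn2 (-0.71 ± 0.10) and Exosc8 (-1.46 ± 0.27) fell as well.

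Nonsense-mediated decay, which removes many transcripts with kept introns once they reach the ribosome, had 3 of 20 genes higher and 3 lower, and 5 higher with overlapping reads. Without H3B-8800 replicate 1, vehicle replicate 2, vehicle replicate 4, the muscle-rich or the adipocyte-rich libraries, 1 was lower. Etf1, the release factor eRF1, had 272, 262, 312 and 272 CPM with H3B-8800, against 163, 163, 172 and 111 CPM with vehicle (0.88 ± 0.13, adjusted p = 6.08e-05). Its partner Gspt1, or eRF3, had 371, 379, 403 and 375 CPM with H3B-8800, against 256, 259, 264 and 222 CPM with vehicle (0.61 ± 0.09, adjusted p = 7.04e-05). Dhx34 had 5.75, 4.69, 4.64 and 5.16 CPM with H3B-8800, against 15.1, 16.9, 14.1 and 26.7 CPM with vehicle (-1.84 ± 0.27), but -0.44 with overlapping reads (adjusted p = 0.132).

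Of 48 DNA repair genes, 22 were lower and 0 higher (edgeR), with a median log2 change of -0.52. DESeq2 gave the same counts, and at an unadjusted p under 0.05, 28 were lower and 0 higher. With overlapping reads 23 were lower and 6 higher. Without the muscle-rich libraries 13 were lower, and without the adipocyte-rich ones 14. Msh3, of mismatch recognition, had 16.9, 12.1, 10.9 and 17.3 CPM with H3B-8800, against 26.3, 30.4, 24.5 and 33.3 CPM with vehicle (-0.999 ± 0.16, adjusted p = 0.000117). Xpc, which finds distorted DNA in nucleotide excision repair, had 8.36, 10.99, 12.98 and 15.9 CPM with H3B-8800, against 30.6, 25.4, 23.1 and 20.1 CPM with vehicle (-1.04 ± 0.19, adjusted p = 0.000456). Both fell with overlapping reads too (-1.03 and -0.69). Many repair genes are expressed most in dividing cells. In the same libraries 32 of 68 cell cycle genes were lower and 1 higher (12 without the muscle-rich and 40 without the adipocyte-rich libraries lower), with a summed level of 1990.3, 1459, 1478 and 3069 CPM with H3B-8800, against 2993, 3065, 2300.3 and 4033 CPM with vehicle, and their part in the repair genes was not tested.

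Of 34 histone demethylases and deacetylases, 11 were lower and 0 higher (edgeR), and 8 and 1 with overlapping reads, with 7 without the muscle-rich and 8 without the adipocyte-rich libraries lower. DESeq2 called 11 lower and 1 higher, and at an unadjusted p under 0.05, 13 were lower and 1 higher. Kdm1a, the demethylase LSD1, had 139.6, 158, 136 and 141 CPM with H3B-8800, against 235, 217, 221 and 228 CPM with vehicle (-0.65 ± 0.12, adjusted p = 0.000505), and Hdac5 fell (-1.23 ± 0.25). Kdm4b had 18.7, 22.0, 18.7 and 21.2 CPM with H3B-8800, against 48.3, 44.9, 45.3 and 35.7 CPM with vehicle (-1.11 ± 0.24), but -0.43 with overlapping reads (adjusted p = 0.127). Of 33 Polycomb and trithorax genes, 3 were higher and 8 lower, and the 3 were 1 without H3B-8800 replicate 1 or vehicle replicate 4 and 0 without the muscle-rich libraries. Ezh2, the methyltransferase of PRC2, had 30.0, 38.6, 36.4 and 59.2 CPM with H3B-8800, against 95.5, 87.1, 68.4 and 109.8 CPM with vehicle (-1.14 ± 0.20, adjusted p = 0.000432), and its homolog Ezh1 fell likewise (-1.27 ± 0.19). Pcgf1, of a variant PRC1, had 2.98, 9.39, 6.37 and 5.76 CPM with H3B-8800, against 20.4, 27.7, 24.6 and 48.9 CPM with vehicle (-2.31 ± 0.46). Of 51 genes of Mediator and transcription elongation, 1 was higher and 12 lower, 7 without vehicle replicate 2, 8 without the muscle-rich and 5 without the adipocyte-rich libraries. Cdc73, of the PAF complex, fell (-0.72 ± 0.13). Cdk9, the elongation kinase, and Med4 fell by 1.16 and 1.03 on the log2 scale, but their changes were -0.21 and -0.24 with overlapping reads and not called (adjusted p = 0.344 and 0.264).

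Ribosome biogenesis genes included many called lower, and ribosomal protein genes none. Of 36 biogenesis genes, 14 were lower and 0 higher (edgeR; 6 and 2 with overlapping reads), and 78.3% of their 304 tested introns were higher, against 54.7% of all introns. DESeq2 called 14 lower and 0 higher, and at an unadjusted p under 0.05, 20 were lower and 0 higher. Without the muscle-rich libraries 6 were lower, and without the adipocyte-rich ones 12. Tcof1, of ribosomal RNA transcription, had 24.1, 19.98, 17.3 and 30.4 CPM with H3B-8800, against 51.5, 51.3, 37.0 and 61.6 CPM with vehicle (-1.13 ± 0.19, adjusted p = 0.000193; -0.95 with overlapping reads). Rrp1b had 9.38, 6.57, 4.95 and 8.60 CPM with H3B-8800, against 21.6, 22.4, 14.6 and 27.0 CPM with vehicle (-1.53 ± 0.20), but -0.42 with overlapping reads (adjusted p = 0.136). Nip7, whose intron 2 is printed above, had 3.56, 5.70, 5.66 and 4.41 CPM with H3B-8800, against 12.2, 13.4, 11.8 and 10.9 CPM with vehicle (-1.32 ± 0.22), but -0.05 with overlapping reads (adjusted p = 0.863). For Nip7 the total of reads was alike while their place in the gene was not. Of 75 cytosolic ribosomal protein genes 0 were called in either direction by edgeR, 0 by DESeq2 and 0 at an unadjusted p under 0.05, with a median log2 change of -0.08, and 71.0% of their tested introns were higher.

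Oxidative phosphorylation and lysosome genes were called higher in part, with none called lower by edgeR. Of 62 oxidative phosphorylation genes, 15 were higher and 0 lower (edgeR), with a median log2 change of 0.42. Leaving out H3B-8800 replicate 3 gave 9, leaving out vehicle replicate 4 gave 26, and the count was 8 without the muscle-rich libraries, 9 without the adipocyte-rich ones and 2 with overlapping reads. DESeq2 called 19 higher and 0 lower, and at an unadjusted p under 0.05, 29 were higher and 0 lower. Sdha, of complex II, had 577, 575, 585 and 481 CPM with H3B-8800, against 374, 394, 423 and 303 CPM with vehicle (0.57 ± 0.10, adjusted p = 0.000365). Uqcrfs1, the Rieske subunit of complex III, had 50.8, 52.1, 61.1 and 35.7 CPM with H3B-8800, against 24.3, 27.3, 33.3 and 24.5 CPM with vehicle (0.87 ± 0.17, adjusted p = 0.000891). Atp5g3, of ATP synthase, rose by 0.68 ± 0.14, and its change was 0.39 with overlapping reads (adjusted p = 0.0896). Of 62 genes of the mitochondrial ribosome, 4 were higher and 5 lower, 1 and 2 without the muscle-rich and 1 and 3 without the adipocyte-rich libraries.

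Of 29 lysosome genes, 9 were higher and 0 lower (edgeR), 5 without vehicle replicate 4, 4 without either the muscle-rich or the adipocyte-rich libraries, and 1 with overlapping reads. DESeq2 called 10 higher and 0 lower, and at an unadjusted p under 0.05, 11 were higher and 1 lower. Ctsd, the protease cathepsin D, had 1436, 1385, 1712 and 1408 CPM with H3B-8800, against 819.7, 804, 1152 and 729 CPM with vehicle (0.76 ± 0.16, adjusted p = 0.00179). Lamp1, the main lysosomal membrane protein, had 1156, 1185, 1407 and 974 CPM with H3B-8800, against 736, 783, 963 and 594 CPM with vehicle (0.62 ± 0.14), and 0.35 with overlapping reads (adjusted p = 0.117). Macrophages are rich in lysosomes, and 26 of 48 macrophage genes were higher and 1 lower in the same comparison, 11 higher without the adipocyte-rich libraries. The part of these cells in the lysosome genes was not tested. Of 34 autophagy genes, 4 were higher and 8 lower, 1 and 4 without the muscle-rich and 2 and 6 without the adipocyte-rich libraries. Rb1cc1, the scaffold FIP200 of the initiating kinase, had 32.7, 48.0, 41.9 and 44.6 CPM with H3B-8800, against 83.1, 76.2, 77.9 and 78.1 CPM with vehicle (-0.91 ± 0.12, adjusted p = 2.63e-05). The 8 were 5 without H3B-8800 replicate 1 or vehicle replicate 1, and the 4 were 2 without H3B-8800 replicate 3.

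Of 33 p53 targets, 8 were higher and 5 lower, the 5 being 3 without H3B-8800 replicate 1 or 2, vehicle replicate 1 or the muscle-rich libraries. Sesn2, a sestrin that restrains mTORC1 and also belongs to the integrated stress response, had 64.4, 67.0, 59.7 and 49.97 CPM with H3B-8800, against 21.7, 27.3, 29.9 and 19.5 CPM with vehicle (1.29 ± 0.22, adjusted p = 0.00032). Zmat3, an RNA-binding p53 target, had 42.6, 44.4, 58.0 and 46.2 CPM with H3B-8800, against 15.3, 24.4, 24.0 and 17.3 CPM with vehicle (1.24 ± 0.23, adjusted p = 0.000541). Of 25 genes of the unfolded protein response, 6 were higher and 2 lower, and 10 were higher without vehicle replicate 3 and 4 without the adipocyte-rich libraries. Dnajb9, a chaperone of the endoplasmic reticulum, had 50.8, 60.4, 90.9 and 40.4 CPM with H3B-8800, against 21.1, 24.4, 39.0 and 15.8 CPM with vehicle (1.27 ± 0.24, adjusted p = 0.000742). Xbp1, the transcription factor that is spliced in the cytoplasm, had 1954, 2074, 1439 and 1164 CPM with H3B-8800, against 841, 969, 1169.6 and 701 CPM with vehicle (0.85 ± 0.16), with 1 vehicle tumor above 1 H3B-8800 tumor. Syvn1, whose intron 6 is printed above, had 32.8, 47.8, 50.9 and 34.0 CPM with H3B-8800, against 76.7, 70.1, 115 and 79.9 CPM with vehicle (-1.05 ± 0.19), but 0.11 with overlapping reads (adjusted p = 0.631). Of 20 heat shock genes 2 were higher and 1 lower, with 0 higher without the muscle-rich libraries. Of 34 proteasome genes 2 were higher and 1 lower, 1 and 0 without either pair of libraries.

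The NF-kB list, with 4 of 26 higher and 4 lower, held inhibitors that moved apart. Nfkbia, the inhibitor that NF-kB itself induces, had 205, 218, 278 and 140.3 CPM with H3B-8800, against 67.0, 72.9, 68.7 and 68.9 CPM with vehicle (1.599 ± 0.20, adjusted p = 1.36e-05). Nfkbie, a related inhibitor, had 0.218, 0.536, 0.315 and 0.374 CPM of spliced reads with H3B-8800, against 2.68, 2.39, 1.90 and 1.90 CPM with vehicle (-2.58 ± 0.33, adjusted p = 1.61e-05). With overlapping reads Nfkbie was called higher instead, at 1.37 (adjusted p = 0.000538). Icam1, an adhesion molecule induced by NF-kB, had 7.56, 7.64, 5.50 and 8.75 CPM with H3B-8800, against 2.68, 3.83, 2.49 and 1.73 CPM with vehicle (1.45 ± 0.31, adjusted p = 0.00182). The 4 higher were 2 without vehicle replicate 4 or the muscle-rich libraries, and the 4 lower were 2 without the adipocyte-rich ones. Of 21 immediate early genes, 5 were higher and 1 lower, 3 higher without H3B-8800 replicate 2, vehicle replicate 2 or the adipocyte-rich libraries, and 2 lower without the muscle-rich ones. Fosl2, an AP-1 subunit, had 49.3, 36.7, 25.2 and 28.2 CPM with H3B-8800, against 15.96, 11.7, 9.002 and 6.31 CPM with vehicle (1.69 ± 0.31, adjusted p = 0.00058). Smad6, an inhibitor of BMP signalling, had 0.873, 0.469, 0 and 0.449 CPM with H3B-8800, against 4.93, 3.28, 2.85 and 4.41 CPM with vehicle (-3.07 ± 0.56, adjusted p = 0.0005).

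Of 16 BCL2 family genes, which set the threshold of mitochondrial apoptosis, 2 were higher and 3 lower, and 1 was higher without the muscle-rich libraries. Mcl1, an inhibitor of apoptosis, had 59.0, 52.6, 68.2 and 59.3 CPM with H3B-8800, against 41.7, 44.0, 38.5 and 33.9 CPM with vehicle (0.60 ± 0.11, adjusted p = 0.00084). Bmf, a BH3-only activator, had 3.49, 3.35, 3.22 and 3.82 CPM with H3B-8800, against 10.96, 8.96, 12.4 and 8.73 CPM with vehicle (-1.56 ± 0.23, adjusted p = 5.83e-05). Bid, which links death receptors to mitochondria, had 3.56, 3.22, 3.30 and 4.79 CPM with H3B-8800, against 7.49, 10.5, 7.68 and 10.6 CPM with vehicle (-1.29 ± 0.19), but -0.35 with overlapping reads (adjusted p = 0.267). Mcl1 and Bmf kept their calls with overlapping reads (0.44 and -0.98).

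Of 35 genes of hypoxia and glycolysis, 8 were lower and 1 higher, with 6 without the muscle-rich and 5 without the adipocyte-rich libraries lower. Egln3, an oxygen-sensing prolyl hydroxylase, had 58.3, 46.6, 48.2 and 67.5 CPM with H3B-8800, against 204, 134, 95.3 and 122 CPM with vehicle (-1.33 ± 0.26, adjusted p = 0.00109). Pkm, pyruvate kinase, had 3372, 2526, 3296 and 2709.7 CPM with H3B-8800, against 1796, 1681, 1883 and 1475 CPM with vehicle (0.80 ± 0.15, adjusted p = 0.000728). Of 24 genes of fatty acid synthesis and lipid storage, 3 were higher and 6 lower. The 3 were 1 without H3B-8800 replicate 3 or vehicle replicate 4 and 0 without the adipocyte-rich libraries. The 6 were 3 without vehicle replicate 1 or 2 or without either the muscle-rich or the adipocyte-rich libraries. Srebf1, the master regulator of lipid synthesis, had 337, 377, 184 and 262 CPM with H3B-8800, against 567, 627, 592 and 921 CPM with vehicle (-1.22 ± 0.20, adjusted p = 0.000246; -0.59 with overlapping reads). Plin3, a lipid droplet coat protein, had 52.7, 56.6, 40.5 and 40.7 CPM with H3B-8800, against 105, 101, 105 and 103 CPM with vehicle (-1.12 ± 0.18, adjusted p = 0.000184). Of 23 sterol synthesis genes, 0 were higher and 3 lower (edgeR; 1 and 5 with overlapping reads), 2 and 3 with DESeq2, and 3 and 6 at an unadjusted p under 0.05, and 1 was lower without either the muscle-rich or the adipocyte-rich libraries.

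Receptors and junctions of the epithelium were described as well. Of 34 receptor tyrosine kinase and MAPK genes, 4 were higher and 5 lower. The 4 were 2 without H3B-8800 replicate 3, vehicle replicate 4, the muscle-rich or the adipocyte-rich libraries, and the 5 were 2 or 3 without any 1 of H3B-8800 replicates 1 to 3 and vehicle replicates 1 to 3, 2 without the muscle-rich and 3 without the adipocyte-rich libraries. Erbb2 had 50.3, 51.3, 38.4 and 47.8 CPM with H3B-8800, against 106, 92.9, 79.8 and 83.1 CPM with vehicle (-0.95 ± 0.17), but -0.45 with overlapping reads (adjusted p = 0.0681). Axl, a receptor of mesenchymal cells and macrophages, had 68.4, 68.7, 75.1 and 80.9 CPM with H3B-8800, against 36.2, 31.9, 40.03 and 16.1 CPM with vehicle (1.24 ± 0.31, adjusted p = 0.00592). Of 26 genes of junctions and apical polarity, 4 were lower and 0 higher (edgeR), and 1 or 2 lower without H3B-8800 replicate 3 or 4, vehicle replicate 1 or 2, the muscle-rich or the adipocyte-rich libraries. DESeq2 called 6 lower and 1 higher, and at an unadjusted p under 0.05, 9 were lower and 1 higher.

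Of 23 luminal and epithelial genes, 4 were higher and 1 lower, the 4 being 2 without H3B-8800 replicate 4, vehicle replicate 2 or the muscle-rich libraries and 1 without vehicle replicate 4 or the adipocyte-rich libraries. The 1 lower was not called without the adipocyte-rich libraries or vehicle replicate 4. Ehf, an epithelial ETS factor, had 790.3, 715, 797 and 617 CPM with H3B-8800, against 537, 414, 456 and 274 CPM with vehicle (0.80 ± 0.22, adjusted p = 0.0141). Without vehicle replicate 4 its change was 0.64 (adjusted p = 0.0506), and without the muscle-rich libraries 0.75 (0.0854). Of 15 basal and myoepithelial genes, 4 were higher and 0 lower (edgeR), 2 without H3B-8800 replicate 1 or 4, vehicle replicate 3 or the muscle-rich libraries. DESeq2 called 4 higher and 0 lower, and at an unadjusted p under 0.05, 4 were higher and 1 lower. Contractile genes were among them: Cnn1, calponin, had 18.5, 19.4, 16.7 and 37.6 CPM with H3B-8800, against 2.19, 8.27, 3.59 and 3.55 CPM with vehicle (2.39 ± 0.49, adjusted p = 0.00142). Acta2, smooth muscle actin, had 594, 529, 393 and 852 CPM with H3B-8800, against 183, 389, 167 and 263 CPM with vehicle (1.24 ± 0.33, adjusted p = 0.00987). Both are also made by smooth muscle and fibroblasts. The basal keratin gene Krt5 had 118, 64.2, 32.0 and 159 CPM with H3B-8800, against 39.8, 139, 27.7 and 41.8 CPM with vehicle, with the groups overlapping. S100a4, a gene of mesenchymal cells and leukocytes, had 10.98, 9.32, 15.3 and 16.98 CPM with H3B-8800, against 3.53, 2.46, 1.61 and 5.19 CPM with vehicle (2.05 ± 0.33, adjusted p = 0.000174), and was the 1 gene called of 20 of the mesenchymal transition. Folr1, the folate receptor on the list of lactation genes, had 881, 1076, 1120.0 and 490.9 CPM with H3B-8800, against 218, 319.8, 572 and 331 CPM with vehicle (1.31 ± 0.33), with 1 H3B-8800 tumor below 1 vehicle tumor, and an adjusted p of 0.0629 without the muscle-rich libraries.

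Of 26 fibroblast and matrix genes, 5 were higher and 0 lower (edgeR), 0 without H3B-8800 replicate 4 or vehicle replicate 2, 3 or 4, 3 when H3B-8800 replicate 3 and 8 when vehicle replicate 1 was left out, 5 without the muscle-rich and 0 without the adipocyte-rich libraries. DESeq2 called 7 higher and 0 lower, and at an unadjusted p under 0.05, 9 were higher and 0 lower. The list summed to 6268, 6753, 5280.1 and 9634 CPM with H3B-8800, against 6598, 3251, 2588 and 3259 CPM with vehicle, so that vehicle replicate 1 lay among the H3B-8800 tumors. Dcn, the proteoglycan decorin, had 57.5, 73.2, 54.6 and 182 CPM with H3B-8800, against 54.0, 11.6, 14.7 and 21.4 CPM with vehicle (1.85 ± 0.60, adjusted p = 0.0292). Its call ended with overlapping reads (1.58, adjusted p = 0.0577) and with the 8 libraries fitted alone (1.85, 0.0581). It also ended without H3B-8800 replicate 4 (1.27, 0.126), the adipocyte-rich libraries (1.36, 0.185) or vehicle replicate 2, 3 or 4 (1.65 to 1.77, 0.073 to 0.0816). Of 14 adipocyte genes, 3 were higher and 0 lower (edgeR), and 0 without H3B-8800 replicate 4, without any 1 vehicle library or without the adipocyte-rich libraries, and 6 without the muscle-rich ones. DESeq2 called 6 higher and 0 lower, and at an unadjusted p under 0.05, 7 were higher and 0 lower. Adipoq, the hormone adiponectin, had 0, 0.0670, 4.40 and 19.9 CPM with H3B-8800, against 0, 0, 0.0732 and 0.259 CPM with vehicle. Its groups overlapped, and its log2 change was 6.20 ± 2.10 (adjusted p = 0.0357, edgeR). The call was lost without H3B-8800 replicate 3 (0.0533) or 4 (0.153) or any 1 vehicle library (0.0602 to 0.0869). It was also lost with the 8 libraries fitted alone (0.0641), the median over introns as gene count (0.0614) or replicate number as a block (5.86, 0.0757). Without the adipocyte-rich libraries the log2 change was -0.91. Of 20 skeletal muscle genes 0 were called by edgeR, although the muscle-rich libraries carried most of their reads. DESeq2 called 10 higher and 0 lower, and at an unadjusted p under 0.05, 7 were higher and 0 lower.

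Of 19 endothelial genes 0 were higher and 1 lower (edgeR), 0 and 0 without either pair of libraries, 1 and 1 with DESeq2, and 2 and 1 at an unadjusted p under 0.05. The endothelial gene Pecam1 had 37.6, 56.6, 33.6 and 41.7 CPM with H3B-8800, against 51.8, 33.6, 42.9 and 47.9 CPM with vehicle. Of 12 T cell and 13 B and plasma cell genes 0 were called by edgeR, at summed levels of 12.7 to 33.7 and 22.9 to 38.5 CPM with H3B-8800, against 10.7 to 16.9 and 15.7 to 33.3 CPM with vehicle. DESeq2 and an unadjusted p under 0.05 gave 0 for the T cell genes and 1 higher for the B and plasma cell genes. Of 8 mast cell and eosinophil genes 5 were higher, 2 without H3B-8800 replicate 4, 3 without vehicle replicate 2, 3 or 4 and 0 without the adipocyte-rich libraries. The chymase gene Cma1 had 0.946, 0.737, 0.236 and 7.11 CPM with H3B-8800, against 0, 0, 0.0732 and 0.0865 CPM with vehicle. With 2 reads in the vehicle group its ratio was 62.7, with a 95% counting interval of 16.99 to 524. Its adjusted p was 0.0551 without the adipocyte-rich libraries and 0.107 with the median over introns as gene count. The list as a whole summed to 269, 200.05, 97.4 and 214 CPM with H3B-8800, against 368, 377, 305 and 277 CPM with vehicle, the opposite direction to the genes called.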

How the data were processed

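Per the labels' protocols, RNA of whole tumors kept in RNAlater was purified and polyadenylated RNA made into stranded libraries. HISAT2 2.0.4 and the builds mm10 and hg38 are named per the submitters' processing notes. The counting tool is not given in the sources used here. The deposited files hold, per intron, counts of reads inside it and counts of reads overlapping it, with 1 transcript per gene. An RPKM column was not used. Of 163337 introns, 22 without values were left out, and 99.9% of introns match GENCODE M21 on mm10. Spliced reads are overlapping minus intronic reads, so a gene without an intron was not measured, and a fragment over several junctions counts at each.

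The 13001 genes reaching 1 CPM in 2 or more of the 25 libraries were fitted with TMM in edgeR 4.0.16 (R 4.3.3, robust quasi-likelihood test, 8 group means), with Benjamini-Hochberg adjustment and a threshold of 0.05. Introns were fitted likewise on intronic reads offset by the log spliced reads of their gene, given means of at least 5 intronic and 10 spliced reads (52042 introns). The SE is the log2 fold change over the square root of F. Median retention was compared by exact permutation in SciPy 1.17.1. Alternatives were RLE and upper quartile scaling, DESeq2 1.42.0, limma 3.58.1, other filters, offsets and gene counts, the 8 libraries alone, a replicate block, and leaving out libraries. The fits without the muscle-rich or adipocyte-rich libraries were chosen after seeing the data. The scripts were tested on simulated data. Depth was 11764084 to 17767484 spliced reads per library, and intervals and floors cover counting error only.

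Named genes were the 14 higher and 14 lower with the largest fitted change among those called, with non-overlapping groups and a higher mean of at least 5 CPM, leaving out predicted genes, pseudogenes, receptor segments and the interferon, cell cycle and macrophage lists, and up to 4 called members per list with the smallest p, of which not all are described. Named introns had the largest fitted change: the 12 higher and 8 lower without an annotated exon and the 6 lower with one. They were limited to 1 per gene, leaving out those lists and genes whose introns had been described before. Each was called and had non-overlapping groups. Each also had a mean per library of at least 20 overlapping reads in both groups and at least 10 intronic reads in the higher one. The printed introns are of at most 120 bases, by a rule chosen after the data were seen. Members and the 61 gene lists were chosen with earlier results of these data known.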

Additional observations from a re-analysis of the deposited data

Results flagged for a closer look

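In 30 of 280 groups of 4 libraries tested, the highest or lowest library stood apart from the other 3 by Dixon's ratio, which chance does in about 1 in 20 groups. Among the genes with the largest changes, such libraries were at 34.1 CPM for Pi16, 141 for Egf, 7.42 for Itgbl1 and 2.69 for Fam64a with H3B-8800, and at 5.85 for Mgl2, 24.0 for Tnni3 and 11.1 for Fhl3 with vehicle. Among splicing and RNA genes they were at 328 CPM for Sf3b3 with H3B-8800 and, with vehicle, at 191 for Sf3b3, 157 for Srsf3, 206 for Clk3 and 111 for Etf1. Among the other lists they were at 481 CPM for Sdha, 1712 for Ctsd, 37.6 for Cnn1, 182 for Dcn and 7.11 for Cma1 with H3B-8800, and at 921 for Srebf1 and 66.5 for Cdc73 with vehicle.

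Introns held such libraries too. With H3B-8800 they had 69.6% of reads inside Apba3 intron 1, 0.565% in Arglu1 intron 1, 0.980% in Ank intron 2, 6.25% in Sos1 intron 6, 2.21% in Snd1 intron 14 and 7.39% in Commd3 intron 2. With vehicle they had 68.5% in Tmem135 intron 4, 32.3% in Arglu1 intron 1, 44.2% in Ank intron 2, 2.63% in Gadd45b intron 1 and 5.50% in Tmem256 intron 3. The vehicle library apart in the Tmem135, Arglu1 and Ank introns was replicate 4 in each.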

How the results depend on the processing

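Of 103 genes whose test is described, 66 kept their direction and call under every alternative, as did all 31 introns described as called. The other 37 genes lost their call or turned direction under at least 1 alternative, and the cause was not tested. With overlapping reads Clk3 (0.15), Syvn1 (0.11) and Nfkbie (1.37) turned direction, and Adipoq did without the adipocyte-rich libraries (-0.91). Genes called higher, 1328, were 839 to 1277 when leaving out 1 library, 629 without the adipocyte-rich and 791 without the muscle-rich libraries, and genes called lower, 1896, were 1424 to 1856, 1210 and 1108. DESeq2 gave 1833 and 2005, and RLE scaling 1472 and 1751. Introns called higher, 28441, were 24493 to 30213 when leaving out 1 library, 17718 when only introns without an annotated exon were tested and 12921 with means of at least 20 intronic and 20 spliced reads, where fewer introns were tested. Introns called lower, 2953, were 1313 to 3252 when leaving out 1 library, 1190 without annotated exons, 1690 with limma, 4468 with means of at least 1, 1229 with means of at least 20, 1516 without the adipocyte-rich and 1885 without the muscle-rich libraries. The difference in median retention was 21.2 to 24.3 points when leaving out 1 library, at p = 0.0571 in the exact test, the smallest that 4 against 3 allows. It was 21.5 over all tested introns, 12.5 with pooled reads and 20.7 over introns with at least 20 reads, at p = 0.0286 each in the exact test.

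The labels give both groups replicates 1 to 4 without saying that numbers pair tumors. Deviations from the group means correlated at 0.12, 0.04, 0.48 and 0.12 between libraries of the same number, and H3B-8800 replicates 1, 2 and 4 correlated best with another number, so the numbers were not taken as pairs. With the replicate block 1311 genes were higher and 1894 lower, 28417 introns were higher and 1858 lower, and the median retention differed by 22.8 points (p = 0.125, exact sign-flip test). Of the genes described, Heph (3.01, adjusted p = 0.0601) and Adipoq (5.86, adjusted p = 0.0757) were not called with the block in edgeR. Introns of 10001 to 30000 bases were then 15.9% higher and 10.6% lower, and 34.8% of those over 30000 bases were lower. Depth limits calls of genes of a few CPM and of introns with few reads, such as Tgfbi intron 6.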

Other observations

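Dhx8, an RNA helicase of the spliceosome, had 65.5, 86.6, 69.4 and 65.2 CPM with H3B-8800, against 876, 65.8, 147 and 667 CPM with vehicle, a log2 change of -2.61 ± 0.63 (adjusted p = 0.0052, edgeR). The groups overlapped, vehicle replicates 1 and 4 stood far above the other 6 libraries, and the adjusted p was 0.0613 without the adipocyte-rich libraries.

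Secretory genes of exocrine glands were higher in part. Of 14 tested, 5 were called higher and 0 lower by edgeR, 4 and 0 by DESeq2, and 8 and 0 at an unadjusted p under 0.05. They summed to 3076, 3203, 4664 and 3683 CPM with H3B-8800, against 2410.4, 1180.0, 2336 and 1563 CPM with vehicle. The count was 1 without vehicle replicate 2 or 4, 2 without H3B-8800 replicate 4, 3 without H3B-8800 replicate 3, 0 without the adipocyte-rich libraries and 2 with overlapping reads. Among single salivary gland genes of the report, Bpifa2 rose and Smr3a fell.

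Keratinocyte genes, of which 2 of 13 could be tested, summed to 86.8 CPM in H3B-8800 replicate 1, to 5.11 to 9.202 CPM in the other H3B-8800 tumors and to 4.90 to 9.86 CPM with vehicle. That library is also the richest in skeletal muscle genes and held the highest share of intronic reads, 27.8%.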
